A study of Homo sapiens with 24 samples.

Results

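HERVH is a family of endogenous retroviruses, the remains of old infections of the germ line, and was followed here as its annotated repeat loci: the internal parts HERVH-int and HERVH48-int, and the long terminal repeats (LTRs) LTR7, LTR7A, LTR7B, LTR7C and LTR7Y. The family was chosen with earlier results of these data known. Its loci were then taken by repeat name alone, with no measured value, which gave 9801 of the 5298130 loci in the repeat table. Of these, 5909 were HERVH-int, 118 HERVH48-int, 2344 LTR7, 15 LTR7A, 848 LTR7B, 318 LTR7C and 249 LTR7Y. By position on hg19, 6580 lay outside every annotated gene body, 3134 overlapped one, and 87 lay on unplaced or alternative sequences and were put in neither class. The study measured total RNA, depleted of ribosomal RNA, in 3 established human liver cancer lines: HepG2, which keeps hepatocyte gene expression, and SNU398 and SNU475, which have lost it. Each line was given decitabine (100 nM daily), GSK-126 (500 nM daily), the combination of both drugs, or the vehicle DPBS (phosphate-buffered saline), for 3 days. HepG2 and SNU398 were harvested on day 14 and SNU475 on day 21, so line and time of harvest cannot be told apart. Each of the 12 groups had 2 libraries, A and B, and all cells were unmodified lines.

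Decitabine is built into DNA and traps DNA methyltransferases, so that DNA methylation is lost as cells divide; GSK-126 inhibits EZH2, the Polycomb enzyme that methylates histone H3 on lysine 27. In a complete HERVH insertion, an LTR stands on each side of the internal part, which once held the viral genes. The upstream LTR acts as the promoter and the downstream one carries the signal for polyadenylation. Many insertions have lost their internal part by recombination between the LTRs and survive as a lone LTR. HERVH is known for high transcription in human pluripotent stem cells, and adult cells keep most copies silent with DNA methylation and repressive histone marks. Some LTR7 copies serve as promoters of long noncoding RNAs.

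Among the long noncoding RNA genes whose annotated first base lay inside one of these LTRs, 2 that rose with decitabine in at least 1 line and keep the same span in GENCODE v29 are given below. Their first bases, up to the end of the LTR or the first exon, are shown because they are the first part of the RNA, which lies in the LTR. Both are on the minus strand, each line runs 5′ to 3′ along the RNA, and capitals mark the CpG dinucleotides, the sites that DNA methyltransferases methylate.
AC006262.5 (IGFL2-AS1), chromosome 19, in an LTR7C: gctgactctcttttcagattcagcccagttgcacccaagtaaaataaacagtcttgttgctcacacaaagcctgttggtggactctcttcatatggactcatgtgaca
RP11-301G19.1, chromosome 6, in an LTR7C: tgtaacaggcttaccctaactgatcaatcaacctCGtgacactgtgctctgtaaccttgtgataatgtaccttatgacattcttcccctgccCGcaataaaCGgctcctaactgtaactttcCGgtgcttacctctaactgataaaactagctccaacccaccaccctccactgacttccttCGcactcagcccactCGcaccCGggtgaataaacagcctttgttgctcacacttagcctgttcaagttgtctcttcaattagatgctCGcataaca

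The shown stretches are 108 and 278 bases long and hold 0 and 8 CpG. Their gene names and positions come from the deposited hg19 gene table, and the bases from the GENCODE v29 transcripts (GRCh38) of the same gene IDs. Over all GENCODE v29 transcripts, the median CpG number in first bases of the same length was 4 for AC006262.5 and 9 for RP11-301G19.1. At least as many CpG as in RP11-301G19.1 stood in 55.2% of transcript starts of its length. Both hold AATAAA, the letters of the polyadenylation signal that the downstream LTR carries, first at base 43 and 96; on the transcript strand, the strand searched, AATAAA stood in 2.6% and 7.1% of transcript starts of those lengths. The stretches of AC006262.5 and RP11-301G19.1, both from an LTR7C, were 74.0% identical over 104 aligned columns.

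Values below are RPM, the reads of a locus per 1000000 reads counted, obtained as the deposited RPKM times the length of the locus in kb, and summed where a value covers several loci. The reads behind the RPKM values numbered 32.6 to 60.4 M (1 M is 1000000 reads) per library, and the 9801 loci together took 62.5 to 131 RPM. Between 339 and 750 of them were above 0 in a library, 3512 in at least 1, and 135 reached 0.25 RPM in at least 2 libraries and could be tested one by one (62 outside genes, 73 inside). The tested loci had a median length of 492 bp, against 462 bp for loci above 0 but not tested and 404 bp for loci at 0 in every library. Both libraries of a group differed by more than counting noise in each of the 12 groups. The labels do not say whether they came from separate cultures, so every p-value here is set by how far 2 libraries of a group lie apart, which may be technical. The hepatocyte markers ALB, APOA1, APOB, TTR, SERPINA1 and AFP fitted the lines: their sum in SNU398 and SNU475 libraries was 0.00604% to 0.597% of the HepG2 mean, highest in SNU475 DPBS A and SNU398 decitabine A. VIM, a mesenchymal marker, was in HepG2 libraries at 0.0288% to 0.971% of its mean in the SNU lines, highest in HepG2 combination B.

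In HepG2, RNA from HERVH-int loci outside genes rose about 6-fold with decitabine and with the combination. The summed level was 31.2 and 33.0 RPM in the 2 decitabine libraries, 6.27 and 6.45 RPM with GSK-126, 31.2 and 30.3 RPM with the combination, and 4.69 and 4.85 RPM with DPBS. The groups with decitabine lay far above DPBS, GSK-126 lay slightly above it, and no group overlapped DPBS. On the log2 scale (RPM + 0.5), decitabine changed the sum by 2.63 ± 0.06 (SE, limma adjusted p = 1.48e-42), GSK-126 by 0.38 ± 0.06 (adjusted p = 5.32e-07) and the combination by 2.57 ± 0.06 (adjusted p = 5.47e-42). Repeat sums were called higher more often than lower in HepG2: of the 585 subfamily sums outside genes, 82.7% were called higher with decitabine, 58.8% with GSK-126 and 43.6% with the combination, against 3.25%, 4.79% and 23.1% called lower. The median change over all of them was 0.71 with decitabine, 0.33 with GSK-126 and 0.17 with the combination. The combination was not called different from decitabine alone for HERVH-int outside genes (-0.06 ± 0.06, adjusted p = 0.378), while 73.5% of subfamily sums were called lower and 5.81% higher in that comparison. In bulk RNA, more cells that transcribe a locus and more RNA per cell cannot be told apart.

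**Figure D1:**
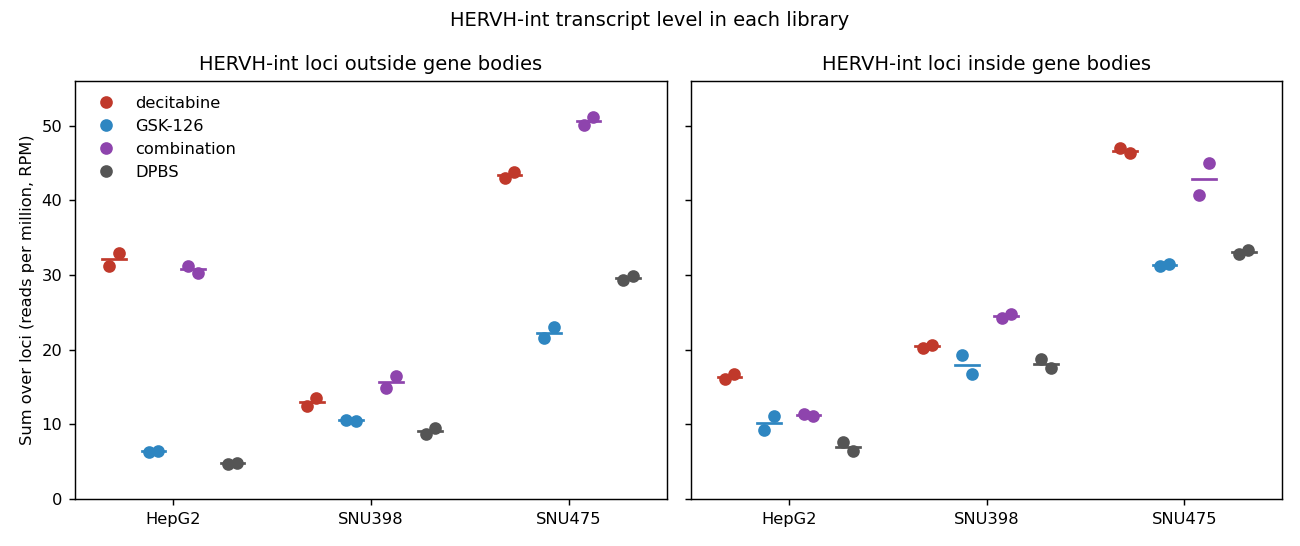
Summed RPM of HERVH-int loci outside gene bodies and inside them, 1 point per library, with decitabine, GSK-126, the combination and DPBS from left to right in each line. HepG2 outside genes stands near 31 RPM with either decitabine treatment against under 5 RPM with DPBS, and SNU475 is highest at 50.2 and 51.2 RPM with the combination.

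SNU475 had the highest HERVH-int level without drug, and there HERVH-int rose with decitabine while most repeat subfamily sums were called lower. Outside genes, SNU475 had 42.9 and 43.8 RPM with decitabine, 21.6 and 22.98 RPM with GSK-126, 50.2 and 51.2 RPM with the combination, and 29.3 and 29.9 RPM with DPBS. The 4 groups did not overlap: GSK-126 was lowest and the combination highest. The log2 changes were 0.54 ± 0.06 with decitabine (limma adjusted p = 5.37e-11), -0.40 ± 0.06 with GSK-126 (adjusted p = 2.43e-07) and 0.76 ± 0.06 with the combination (adjusted p = 2.34e-16). Of all subfamily sums outside genes, 3.93%, 2.05% and 4.96% were called higher in these 3 comparisons, against 61.9%, 57.9% and 69.6% called lower. The combination exceeded decitabine alone by 0.22 ± 0.06 (adjusted p = 0.0302), in a comparison where 1.2% of sums were called higher; this call was lost when any 1 of the 4 libraries was left out (0.21 to 0.24) or without the highest HERVH-int locus, on chromosome 13 (0.09). It also exceeded the product of both single effects. The interaction, which is the log2 effect of the combination less those of both single drugs, was 0.63 ± 0.09 (limma adjusted p = 2.03e-07, with 31.5% of sums called higher). HepG2 had no such excess for HERVH-int. Outside genes the combination (2.57) did not exceed decitabine alone (2.63), although GSK-126 alone also raised the sum (0.38). Inside genes the combination (0.65) lay below decitabine (1.17), with GSK-126 alone at 0.51.

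In SNU398 the changes with decitabine and the combination were smaller than in HepG2 and close to those in SNU475. HERVH-int outside genes stood at 12.5 and 13.6 RPM with decitabine, 10.6 and 10.5 RPM with GSK-126, 14.8 and 16.4 RPM with the combination, and 8.76 and 9.49 RPM with DPBS. All treated libraries lay above both DPBS libraries, by 0.49 ± 0.06 with decitabine (limma adjusted p = 6.47e-09), 0.20 ± 0.06 with GSK-126 (adjusted p = 0.0118) and 0.74 ± 0.06 with the combination (adjusted p = 5.72e-15). The GSK-126 call was lost without SNU398 DPBS A (0.15) or SNU398 GSK-126 A (0.19). Of all subfamily sums outside genes, 18.3%, 17.6% and 47.7% were called higher in these comparisons and 2.05%, 8.55% and 2.05% lower. The combination exceeded decitabine alone by 0.25 ± 0.06 (adjusted p = 0.00188; 20.9% of sums called higher), a call lost without decitabine A (0.19) or combination B (0.18).

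Inside gene bodies, where RNA of the host gene is counted on the repeat as well, the HERVH-int changes against DPBS were smaller than outside genes, except with GSK-126 in HepG2; the difference between both classes was not tested. In HepG2 the sums were 16.1 and 16.7 RPM with decitabine, 9.30 and 11.1 RPM with GSK-126, 11.4 and 11.1 RPM with the combination, and 7.62 and 6.39 RPM with DPBS. The log2 changes were 1.17 ± 0.07 with decitabine (limma adjusted p = 1.59e-15), 0.51 ± 0.07 with GSK-126 (adjusted p = 3.96e-07) and 0.65 ± 0.07 with the combination (adjusted p = 3.67e-09), and the combination was lower than decitabine by -0.52 ± 0.07 (adjusted p = 1.61e-07). Over all 785 subfamily sums inside genes, 82.4%, 72.2% and 32% were called higher against DPBS, and 81.7% were called lower with the combination than with decitabine. In SNU475, HERVH-int inside genes rose by 0.49 with decitabine (6.24% of sums called higher) and 0.37 with the combination (5.73%), and GSK-126 gave -0.08, which did not pass. In SNU398 it rose by 0.43 with the combination (44.1% of sums called higher) and did not pass with decitabine (0.17, adjusted p = 0.148). For GSK-126 in SNU398 the change was -0.01, and its sign turned to 0.16 when libraries were scaled by their genes; that scaling moved every log2 change of this comparison by 0.172 and those of the other comparisons with DPBS by 0.016 to 0.097.

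HERVH48-int, the internal part of the related family that gave the placental gene ERVH48-1, was too low outside genes to be tested there. Outside genes in SNU475 it had 0.158 and 0.173 RPM with decitabine and 0.098 and 0.211 RPM with the combination. With DPBS it had 0.550 and 0.509 RPM there, so both groups lay below DPBS, opposite to the loci inside genes. In HepG2 it had 0.663 and 0.827 RPM outside genes with decitabine, against 0.156 and 0.252 RPM with DPBS. The values below are for loci inside genes. In HepG2 this sum was 2.19 RPM in both decitabine libraries and 0.441 and 0.780 RPM with GSK-126. It was 3.13 and 2.85 RPM with the combination and 0.195 and 0.379 RPM with DPBS, and no treated group overlapped DPBS. The log2 changes were 1.78 ± 0.15 with decitabine, 0.49 ± 0.15 with GSK-126 and 2.16 ± 0.15 with the combination (limma adjusted p = 1.47e-12, 0.00412 and 3.24e-14), and the combination exceeded decitabine by 0.37 ± 0.15 (adjusted p = 0.0218), against 4.84% of sums called higher. The GSK-126 call was lost without DPBS A (0.32) or GSK-126 B (0.27), and the call of the combination against decitabine without decitabine A, decitabine B (0.37 each) or combination A (0.32). In SNU475 it rose by 0.98 with decitabine and 1.42 with the combination, and the interaction was 0.68 ± 0.21 (adjusted p = 0.0177), lost without GSK-126 A, DPBS B, decitabine B or combination B (0.55 to 0.63). In SNU398 it passed only with the combination (0.40 ± 0.15, adjusted p = 0.0275), and not without DPBS A (0.24) or combination B (0.33).

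The LTR subfamilies did not follow one pattern. LTR7Y outside genes rose in HepG2 to 1.92 and 1.64 RPM with decitabine and 1.93 and 2.09 RPM with the combination, against 0.116 and 0.147 RPM with DPBS, log2 changes of 1.85 ± 0.14 and 1.99 ± 0.14 (limma adjusted p = 4.58e-18 and 3.40e-19). Without its highest locus, on chromosome 15, these changes were 0.80 and 0.63, both still called. LTR7Y also rose with both in SNU475 (0.51 and 0.68) and SNU398 (0.40 and 0.55); leaving out single libraries ended the decitabine call in SNU398 in each of 4 cases (0.33 to 0.47), the combination call there without combination B (0.34), and the decitabine call in SNU475 without DPBS B (0.37). LTR7 outside genes rose with decitabine, GSK-126 and the combination in HepG2 (0.65, 0.28 and 0.74) and in SNU398 (0.78, 0.54 and 0.88). It rose in no SNU475 comparison with DPBS. Of all sums outside genes, 82.7%, 58.8% and 43.6% were called higher in HepG2 and 18.3%, 17.6% and 47.7% in SNU398. In HepG2 the LTR7 changes with decitabine and GSK-126 lay below the medians over all sums given above, and the combination change lay above its median. The GSK-126 call in HepG2 was lost without DPBS A, DPBS B (0.28 each) or GSK-126 A (0.20). LTR7B outside genes fell with decitabine (-0.44) and the combination (-0.46) in SNU398 and with GSK-126 (-0.45) and the combination (-0.30) in SNU475. Of all sums outside genes, 2.05% were called lower in each of those SNU398 comparisons, and 57.9% and 69.6% in those of SNU475. Without the highest locus, on chromosome 10 beside LINC00263, the SNU398 change was -0.10 with decitabine and 0.24 with the combination, and neither was called. LTR7B inside genes fell in HepG2 with the combination, to 18.7 and 21.7 RPM against 37.4 and 39.5 RPM with DPBS (-0.92 ± 0.08, limma adjusted p = 7.29e-12). It was also below DPBS with decitabine (31.6 and 34.0 RPM) and GSK-126 (32.6 and 31.7 RPM). A single locus in MPV17L, described below, held most of this sum. LTR7 inside genes had 6.02 and 6.64 RPM with decitabine in HepG2, against 3.98 and 4.83 RPM with DPBS. In SNU398 it had 8.94 and 8.59 RPM with GSK-126 against 5.63 and 6.05 RPM, and in SNU475 7.83 and 8.30 RPM with decitabine against 9.25 and 9.12 RPM. LTR7C outside genes fell with GSK-126 in HepG2 (-0.58 ± 0.14, adjusted p = 0.000262) and rose with decitabine in SNU398 (0.41) and in SNU475 (0.34), calls lost without any 1 of the 4 libraries in SNU398 (0.34 to 0.48) and without either A library in SNU475 (0.28 each). LTR7Y inside genes rose in HepG2 with decitabine (0.60) and GSK-126 (0.36) and fell in SNU398 with GSK-126 (-0.46). Of all sums inside genes, 82.4% and 72.2% were called higher in those HepG2 comparisons, and 25.4% lower in that of SNU398. The GSK-126 calls of LTR7Y were lost without HepG2 DPBS A (0.24), HepG2 GSK-126 B (0.31) or SNU398 GSK-126 B (-0.36). Of the 15 LTR7A loci, 3 were above 0 in any library, and their sum never passed 0.0228 RPM.

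Locus by locus, the share of HERVH and LTR7 loci called higher with decitabine was near the background in HepG2 and above it in both SNU lines. In HepG2, 40 of the 135 tested loci were called higher with decitabine (29.6%) and 4 lower, against 31.8% and 3.34% of all 44652 repeat loci tested. In SNU398, 14 were higher (10.4%) and 2 lower, against 1.87% and 0.542% of all loci. In SNU475, 27 were higher (20%) and 7 lower, against 3.38% and 10.9%. The SNU398 count fell to 9 without DPBS B and the SNU475 count to 16 without decitabine B. A locus that entered the test only because it was high in one group had to differ between groups, so these shares are a description. In HepG2, where the median change of the members was 0.15 against 0.34 for all loci, 31 of the 135 were called at least 2-fold higher (23%), against 19.3% of all loci.

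With the combination, 32 loci were called higher and 11 lower in HepG2 (background 16.4% and 10.6% of all loci), 19 and 4 in SNU398 (5.47% and 1.45%), and 24 and 15 in SNU475 (4.17% and 14.4%). GSK-126 alone called few of them: 7 higher and 5 lower in HepG2 (18.6% and 3.98% of all loci), 5 and 4 in SNU398 (3.84% and 5.25%), and 4 and 11 in SNU475 (2.2% and 6.6%). The 11 lower calls in SNU475 were 1 without GSK-126 A or without GSK-126 B, and 3 without either DPBS library. Between the combination and decitabine, HepG2 had 10 loci higher and 25 lower (4.5% and 25.2% of all loci), SNU398 had 1 higher and 0 lower (1.23% and 0.195%), with 14 at an unadjusted p under 0.05, and SNU475 had 0 higher and 1 lower (0.134% and 0.231%), with 16 at that unadjusted p. By limma voom on the recovered reads, SNU475 had 1 higher and 0 lower. The 10 higher calls in HepG2 were 4 to 6 when decitabine A, decitabine B or combination B was left out.

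**Figure D2:**
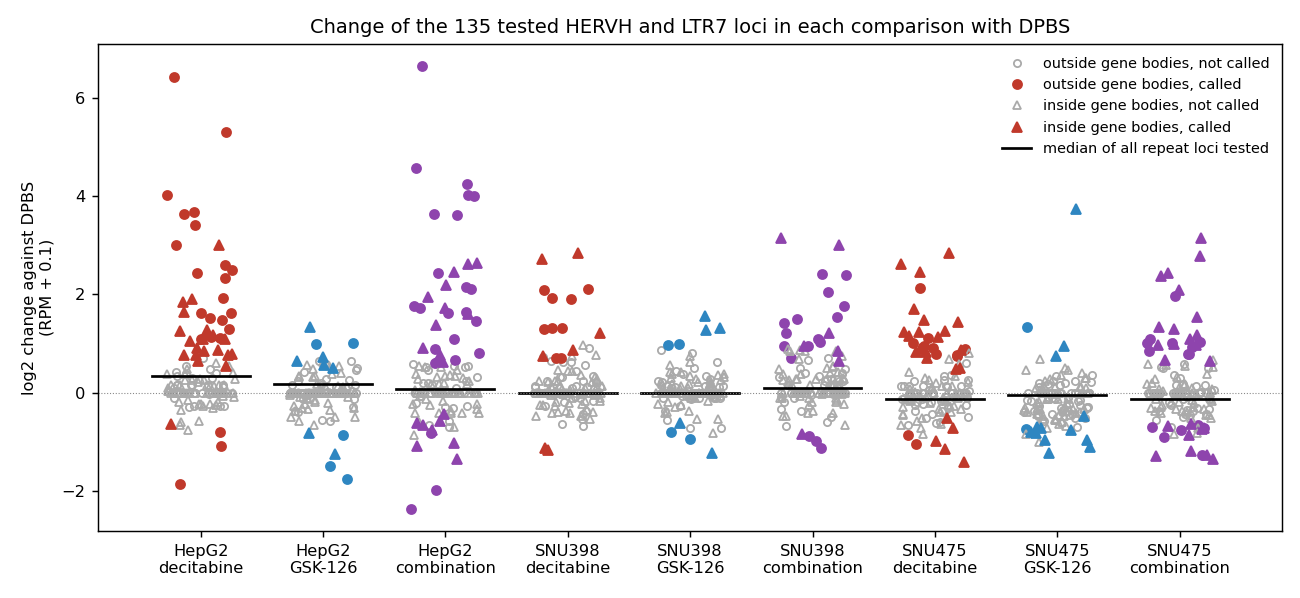
Log2 change against DPBS of each of the 135 tested HERVH and LTR7 loci, 1 point per locus, in 9 comparisons ordered by line and, within a line, decitabine, GSK-126 and combination; the black line is the median of all 44652 tested repeat loci. Most loci lie near 0 and a few rise by more than 4 log2 units in HepG2 with decitabine or the combination.

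By repeat type, 31 of the 69 tested HERVH-int loci and all 5 tested HERVH48-int loci were called higher with decitabine in HepG2, with 3 of the 16 LTR7C, 1 of the 7 LTR7Y, 0 of the 19 LTR7 and 0 of the 19 LTR7B loci. The HERVH-int share was 44.9%, against 31.8% of all tested repeat loci. In SNU398, 9 HERVH-int loci (13%), 1 HERVH48-int, 1 LTR7C, 0 LTR7Y, 2 LTR7 and 1 LTR7B were called higher, against 1.87% of all loci. In SNU475 the counts were 17 HERVH-int (24.6%), 3 HERVH48-int, 2 LTR7C, 2 LTR7Y, 2 LTR7 and 1 LTR7B, against 3.38% of all loci. The loci called higher with decitabine in different lines overlapped in part. HepG2 and SNU398 shared 7 loci, 17.5% of the HepG2 list and 50% of the SNU398 list, HepG2 and SNU475 shared 11 (27.5% and 40.7%), and SNU398 and SNU475 shared 7 (50% and 25.9%). Over all tested repeat loci, the shared calls were 2.89% of the HepG2 list and 49.2% of the SNU398 list, 2.12% of the HepG2 list and 19.9% of the SNU475 list, and 12% of the SNU398 list and 6.62% of the SNU475 list. Of the 60 HERVH and LTR7 loci called higher in at least 1 line, 4 were called in all 3, against 65 of 15780 for all tested loci.

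Neighbouring pieces of one provirus are counted as separate loci, so pieces within 500 bp were also joined into 2681 insertions. Of these, 1294 had an internal part and an LTR and held 68.8% of the RPM, 1290 were LTRs with no internal part within that distance and held 29.7%, and 97 were internal parts without an LTR (1.5%). A tested locus was present in 19.12% of insertions whose internal part is flanked by LTR7C alone (13 of 68), 12.5% of those with LTR7Y (11 of 88), 5.79% of those with LTR7B (11 of 190) and 1.91% of those with LTR7 (17 of 890). Among the LTRs without an internal part, which include some that lie farther than 500 bp from one, the share was 2.79% (36 of 1290). Insertions holding a locus called at least 2-fold higher with decitabine were 21 of the 59 tested with an internal part and 0 of the 36 tested LTRs without one in HepG2, where 19.3% of all tested repeat loci passed that threshold. They were 7 and 1 in SNU398 (1.14% of all loci) and 12 and 1 in SNU475 (1.52%). Insertions with an internal part can hold several tested loci (94 in the 55 that also have an LTR) and each of the 36 held 1, so these counts are not on equal terms.

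A few insertions carried much of the RNA. Outside genes, the insertion at chr13:109917438-109923464 held 59.9% of the summed RPM in SNU475 with decitabine, 46.8% with GSK-126, 64.2% with the combination and 47.6% with DPBS. Without it, the loci outside genes summed to 21.9 and 21.9 RPM with decitabine, 16.3 and 16.7 RPM with GSK-126, 20.7 and 23.1 RPM with the combination, and 20.9 and 21.7 RPM with DPBS. There the combination overlapped DPBS, decitabine lay just above it, and GSK-126 alone stood apart, below. In HepG2 the insertion at chr15:53719041-53724660 held 33.6% of the sum outside genes with decitabine and 41.4% with the combination. The rest still stood at 27.4 and 28.2 RPM with decitabine and 22.9 and 24.6 RPM with the combination, against 11.5 and 10.6 RPM with DPBS. In SNU398 the highest insertion outside genes, at chr10:102143311-102148155, which holds the LTR7B locus beside LINC00263, stood at 2.68 and 2.93 RPM with the combination, against 6.0 and 5.89 RPM with DPBS. Without it the sum was 22.3 and 24.2 RPM with the combination, against 12.7 and 13.3 RPM with DPBS. These sums were taken without a test, after the levels had been seen. For HERVH-int alone, the change outside genes in SNU475 without its main chromosome 13 locus was 0.28 with decitabine, -0.42 with GSK-126 and 0.37 with the combination, each still called by limma.

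**Figure D3:**
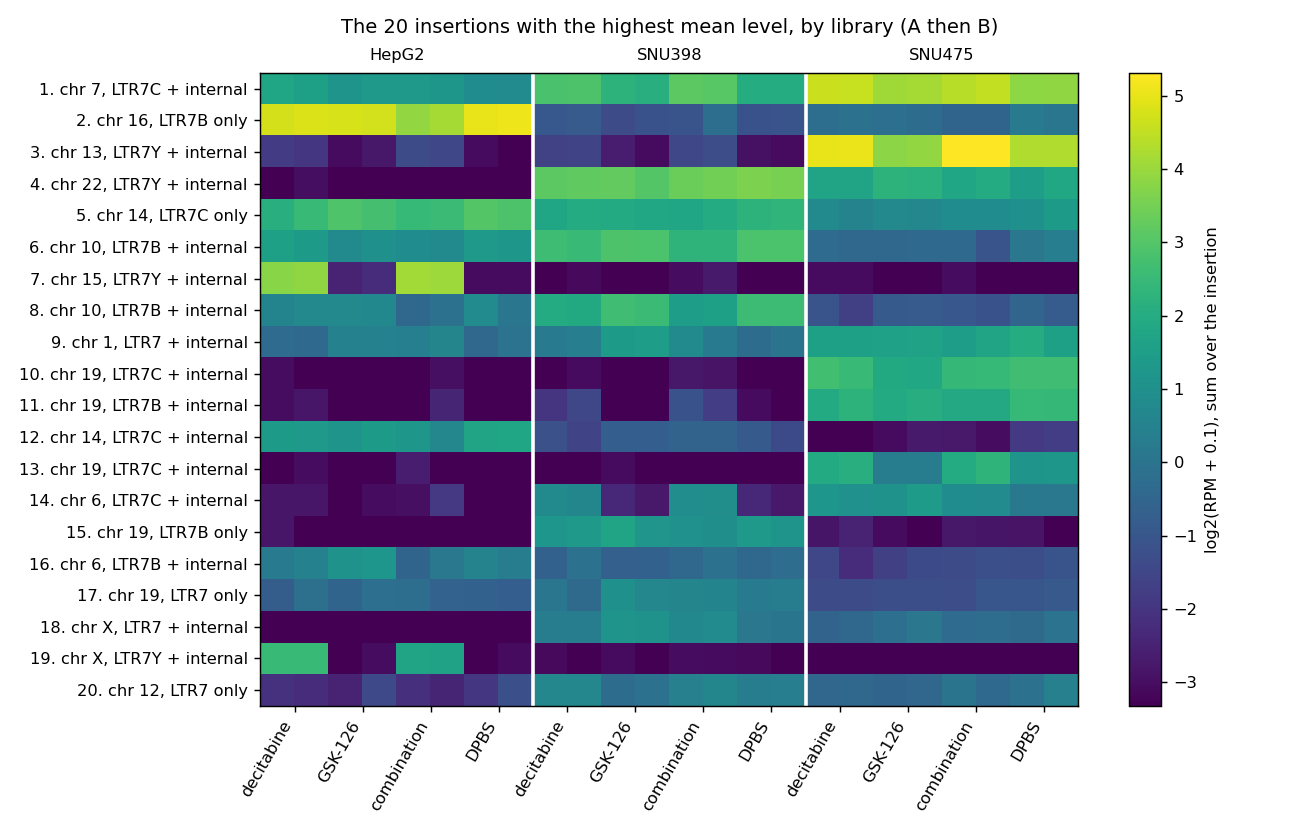
Level, as log2(RPM + 0.1), of the 20 insertions with the highest mean (rows) in the 24 libraries (columns, with decitabine, GSK-126, combination and DPBS in order within each line). The insertion on chromosome 13 is high in the 8 SNU475 libraries, and those on chromosomes 15 and X are high in the 4 HepG2 libraries that received decitabine.

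The insertion on chromosome 15, whose main piece lies 81.7 kb from the nearest annotated gene, WDR72, was at the limit of detection in untreated HepG2. With decitabine or the combination it was the most abundant intergenic HERVH of that line. Its main internal piece, chr15:53721366-53724226, had 8.92 and 9.53 RPM with decitabine, 0.04 and 0.092 RPM with GSK-126, 11.2 and 10.5 RPM with the combination, and 0 and 0.02 RPM with DPBS. The 4 libraries with decitabine stood near 10 RPM and the 4 without it under 0.1 RPM. From 816, 725 and 1 reads, the ratio to DPBS was 918 with decitabine (exact 95% interval 164 to 36300) and 1080 with the combination (193 to 42600); the intervals here and below cover counting error only. In the model, which adds 0.1 RPM, the changes were 6.41 ± 0.24 and 6.64 ± 0.24 (limma adjusted p = 4.16e-15 and 1.06e-15). The piece at its low-coordinate end, an LTR7Y at chr15:53719041-53719475, rose with it: 1.26 and 1.10 RPM with decitabine and 1.44 and 1.63 RPM with the combination, against 0 in both DPBS libraries, at least 39-fold and 51-fold higher taking 3 reads over the DPBS group as the floor. In the 16 SNU398 and SNU475 libraries the main piece stood at 0 to 0.037 RPM; the part that the trace of hepatocyte RNA in some of them plays there was not tested. The insertion at chr1:68851687-68857675 was shared with SNU398: it summed to 2.67 RPM in both HepG2 decitabine libraries and 3.5 and 3.81 RPM with the combination, against 0.135 and 0.188 RPM with DPBS, and to 0.597 and 0.50 RPM and 0.738 and 0.913 RPM in SNU398, against 0 with DPBS.

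An LTR7Y insertion on the X chromosome followed decitabine as well, but was lower with the combination than with decitabine. Its main piece, chrX:109110791-109113650, had 4.08 and 4.33 RPM with decitabine, 0 and 0.023 RPM with GSK-126, 2.42 and 2.56 RPM with the combination, and 0 and 0.02 RPM with DPBS in HepG2. The combination and decitabine did not overlap (-0.73 ± 0.19, limma adjusted p = 0.00539), and the ratio to DPBS was 419 with decitabine (74.7 to 16600) and 248 with the combination (43.9 to 9850). A second piece of it, chrX:109109773-109110150, had 0.092 and 0.029 RPM with the combination and 0.502 and 0.516 RPM with decitabine (-1.95 ± 0.14, adjusted p = 1.75e-09), the lowest change of any named locus in this comparison. Another insertion on the X chromosome went the other way: HERVH-int at chrX:74853854-74857116 had 0.228 and 0.202 RPM with decitabine, 0.082 and 0.114 RPM with GSK-126 and 0.029 RPM in both combination libraries, against 0.62 and 0.522 RPM with DPBS. It fell with all 3 treatments (-1.09, -1.76 and -2.37, each ± 0.15), as did its neighbouring LTR7C (-1.85, -1.50 and -1.97, the second not called with HepG2 fitted alone).

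Within the largest insertions the level was not even along the provirus. On chromosome 13 in SNU475 with the combination, the main internal piece stood at 8.33 RPKM, a measure per length, the next pieces at 7.02, 3.43 and 2.83 RPKM, and the LTR7Y at either end at 0 and 0.554 RPKM. On chromosome 15 in HepG2 with the combination, the LTR7Y at the low-coordinate end stood at 3.53 RPKM, next to 3.78 RPKM over the main internal piece, and the other LTR7Y at 0.036 RPKM. The chromosome X insertion had 0.383 and 0.035 RPKM over its LTRs and 0.87 RPKM over its main piece. How reads that match several copies were treated is not given in the sources used here, and both LTRs of a young insertion are nearly alike, so the part this plays in the low LTR values was not tested.

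**Figure D4:**
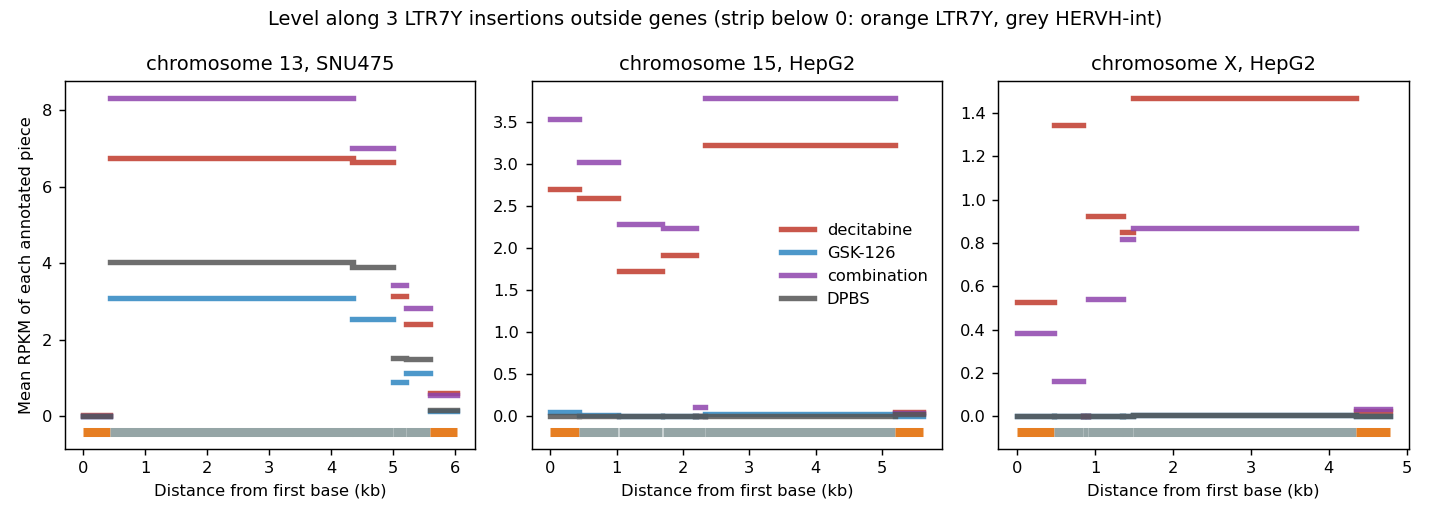
Mean RPKM of each annotated piece, by distance in kb from the start of the insertion, for the insertion on chromosome 13 in SNU475 and those on chromosomes 15 and X in HepG2, in the 4 treatment groups. The internal part is high and 1 of the LTRs is near 0 in each.

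The chromosome 13 insertion, whose main piece lies 12.5 kb from LINC00370, had the highest mean of the insertions outside genes and belonged to SNU475. Its main piece, chr13:109917870-109921795, had 25.9 and 27.1 RPM with decitabine, 11.7 and 12.6 RPM with GSK-126, 32.3 and 33.1 RPM with the combination, and 15.6 and 16.0 RPM with DPBS. The 4 groups did not overlap; decitabine (0.74 ± 0.17, limma adjusted p = 0.00474) and the combination (1.04 ± 0.17, adjusted p = 0.000131) were called higher and GSK-126 was not called. In the other lines the same piece was low but moved alike. HepG2 had 0.181 and 0.157 RPM with decitabine and 0.243 and 0.232 RPM with the combination, against 0.02 and 0 RPM with DPBS, and SNU398 had 0.20 and 0.185 RPM with decitabine and 0.208 and 0.255 RPM with the combination, against 0.016 and 0.02 RPM with DPBS. Both lines were called higher with decitabine (1.30 and 1.31) and with the combination (1.63 and 1.49), and the part of the VIM trace in HepG2 libraries was not tested.

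Other loci were named for a rise in SNU398 or SNU475. In SNU398, LTR7B at chr21:17764278-17764875, inside LINC00478, the host transcript of let-7c and miR-99a, had 0.507 and 0.612 RPM with decitabine, 0.02 and 0.018 RPM with GSK-126 and 0.67 and 0.732 RPM with the combination, and was at 0 in both DPBS libraries, so that it was at least 21.8-fold higher with decitabine and 27.4-fold with the combination. LINC00478 itself was not called in SNU398. On chromosome 5 in SNU398, HERVH-int at chr5:135070535-135072776 had 0.634 and 0.574 RPM with decitabine and 0.509 and 0.549 RPM with the combination, against 0.067 and 0.105 RPM with DPBS, changes of 1.92 and 1.76, and the LTR7 at chr5:135066688-135067073 rose by 2.08 and 2.39, not called with SNU398 fitted alone; HepG2 was at 0 for both in all libraries. In SNU475, HERVH-int at chr15:35531264-35534377, inside the diphthamide synthesis gene DPH6, had 0.651 and 0.85 RPM with decitabine, 0.034 RPM in both GSK-126 libraries, and 0.872 and 0.819 RPM with the combination, against 0.019 and 0.059 RPM with DPBS (2.62 ± 0.21 and 2.78 ± 0.21, limma adjusted p = 6.96e-09 and 1.69e-09), while DPH6 was not called there. HERVH-int at chr5:95504922-95507662, inside 2 overlapping noncoding genes, had 0.713 and 0.655 RPM with decitabine in SNU475 against 0 and 0.019 RPM with DPBS, a ratio of 71.0 (12.3 to 2840). In SNU475, HERVH-int at chr15:101613167-101616147 and the adjoining LTR7 fell with all 3 treatments (-1.41, -1.22 and -1.35; LTR7 -0.98, -1.10 and -1.26). The decitabine and combination calls of both were lost without the A library of that treatment (-0.90 and -1.07 for HERVH-int) and those of the LTR7 also without DPBS B (-0.73 and -1.01). The GSK-126 calls were lost without either GSK-126 library or DPBS B, that of HERVH-int also without DPBS A, and all 6 calls were lost with 0.02 RPM added or with SNU475 fitted alone.

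GSK-126 alone raised few loci, and the 2 with the largest rises lay in genes that rose too. LTR7 at chr1:70833312-70833744, inside HHLA3, a gene named for its association with a HERV-H LTR, had 1.28 and 1.29 RPM with GSK-126 against 0.638 and 0.858 RPM with DPBS in HepG2, and 2.45 and 2.67 RPM against 0.729 and 0.867 RPM in SNU398. The changes were 0.72 ± 0.18 and 1.57 ± 0.18 (limma adjusted p = 0.00526 and 2.07e-06), the first lost without HepG2 DPBS A (0.53), by limma voom (0.79) or with HepG2 fitted alone (0.72), beside 0.63 and 1.54 for the HHLA3 gene on the log2 scale of scaled RPKM + 0.5. In SNU475 it stood at 2.88 and 2.92 RPM with GSK-126 and at 3.78 and 2.67 RPM with DPBS, and the groups overlapped. LTR7 at chr1:89646791-89647190, across the end of GBP4, an interferon-inducible guanylate-binding protein gene, had 0.968 and 0.772 RPM with decitabine, 2.15 and 2.38 RPM with GSK-126 and 1.48 and 1.47 RPM with the combination in SNU475, against 0.076 and 0.078 RPM with DPBS. GSK-126 was highest and no groups overlapped. The changes were 2.45, 3.74 and 3.15 (each ± 0.21) and the interaction -3.03 ± 0.29 (adjusted p = 1.89e-06); the GBP4 gene moved by 2.12, 3.52 and 2.75 with an interaction of -2.89. Outside genes, HERVH-int at chr6:117981213-117985410, 11.3 kb from NUS1, had 1.13 and 1.10 RPM with GSK-126 against 0.579 and 0.462 RPM with DPBS in HepG2 (0.98 ± 0.26, limma adjusted p = 0.00891), and 0.243 and 0.319 RPM with the combination. That call was lost without GSK-126 A (0.96), without DPBS B (0.84) or with 0.02 RPM added (1.08). HERVH-int at chrX:93956137-93959173, 61.6 kb from the nearest annotated gene, was called higher with GSK-126 in SNU398. It had 1.76 and 1.87 RPM there, against 0.863 and 0.85 RPM with DPBS. In SNU475 it had 0.711 and 0.926 RPM with GSK-126 against 0.641 and 0.805 RPM with DPBS, and the groups overlapped.

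Host genes moved with their HERVH loci in some cases and against them in others. With decitabine in HepG2, 20 loci inside genes were called higher; 14 had a tested host gene, of which 10 were called higher (background 35.9% of 19377 genes) and 4 lower (18.3%). In SNU475 the numbers were 18 loci, 13 with a tested host, 8 higher (24.2%) and 2 lower (27.3%). In SNU398 they were 5 loci, all with a tested host, 2 higher (23.4%) and 0 lower (15.4%). With GSK-126 in HepG2, 5 loci inside genes were called higher. Of these, 3 had a tested host, of which 1 was called higher (31%) and 2 lower (21.7%). In SNU398 and in SNU475, 3 loci each were higher with GSK-126, all with a host called higher (30% and 21.5%) and 0 lower (22.4% and 28.5%). With the combination, 10 higher loci in HepG2 had a tested host, 8 higher (40.6%) and 2 lower (25.9%). In SNU398 6 had one, 3 higher (28.9%) and 0 lower (18.4%). In SNU475 12 had one, 7 higher (25.3%) and 2 lower (29.6%). The repeat loci carry no strand in the deposited table, so RNA of the repeat and of the host on the other strand cannot be told apart. The highest locus inside a gene, LTR7B at chr16:15503159-15503584 in MPV17L, which encodes a mitochondrial membrane protein, had 27.0 and 29.1 RPM with decitabine, 27.6 and 26.0 RPM with GSK-126 and 15.1 and 17.7 RPM with the combination in HepG2, against 32.8 and 33.7 RPM with DPBS. The combination was lowest and did not overlap any other group (-1.02 ± 0.18, limma adjusted p = 9.10e-05), and the MPV17L gene fell by 0.68 in that comparison. By contrast, HERVH-int at chr7:64144985-64146899 in ZNF107, a zinc finger gene, rose with decitabine in HepG2 (0.64), SNU398 (0.74) and SNU475 (0.82), where it had 16.6 and 15.6 RPM against 8.74 and 9.37 RPM with DPBS, while ZNF107 itself fell in HepG2 (-0.41) and in SNU475 (-0.66) and was not called in SNU398. The pseudogene RP11-561N12.7 also spans this locus, and as a gene it was at 0.0625 scaled RPKM or less in every library.

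The outermost annotated start of 58 genes lay in one of the loci, with gene strand taken from GENCODE v29, and 7 of these genes were expressed highly enough to be tested: TFPI, RPL39L, AC006262.5, UCA1, RP11-320N7.2, RP11-301G19.1 and RP11-277P12.10. AC006262.5, whose LTR7C start is shown above, had 7.75 and 8.26 scaled RPKM with decitabine, 1.80 and 2.03 with GSK-126 and 8.34 and 8.63 with the combination in SNU475, against 2.99 and 3.03 with DPBS. Its groups did not overlap DPBS, above it with decitabine (1.28 ± 0.05, limma adjusted p = 2.24e-11) and the combination (1.36 ± 0.05) and below it with GSK-126 (-0.54 ± 0.05). It reached at most 0.0809 scaled RPKM in HepG2 and SNU398. RP11-301G19.1 rose in SNU398 to 0.307 and 0.292 with decitabine and 0.495 and 0.475 with the combination, against 0.0269 and 0.0285 with DPBS (0.60 and 0.90), and the HERVH-int beside its LTR, chr6:68591330-68598554, rose there by 2.84 and 3.15. RP11-277P12.10 was at 0 in HepG2 and SNU398 and had 0.683 and 0.584 with decitabine and 0.616 and 0.725 with the combination in SNU475, against 0.0554 and 0.116 with DPBS (0.95 and 1.0). Each of these 3 RNAs rose with decitabine in SNU475.

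UCA1, a long noncoding RNA first described in bladder cancer, starts in an LTR7C and runs through HERVH-int. It had 0.480 and 0.461 scaled RPKM with decitabine, 0.0102 and 0.0573 with GSK-126 and 0.878 and 0.889 with the combination in HepG2, against 0.0654 and 0.0603 with DPBS. It rose with decitabine (0.79 ± 0.05) and the combination (1.30 ± 0.05), and the combination exceeded decitabine by 0.51 ± 0.05 (limma adjusted p = 4.07e-07). In SNU475 it rose by 0.79 and 0.78 with these treatments and fell by 0.23 with GSK-126. RP11-320N7.2 had 1.14 and 0.856 scaled RPKM with decitabine and 2.23 and 1.74 with the combination in HepG2, against 0.328 and 0.429 with DPBS, and was near 0 in the other lines. Of the 2 protein-coding genes, TFPI, the inhibitor of the tissue factor pathway of clotting, rose in SNU398 (1.42, 0.84 and 1.34) and fell with the combination in HepG2 (-0.66) and with all 3 treatments in SNU475 (-0.45, -0.51 and -0.91). RPL39L, a paralog of a ribosomal protein gene, rose with all 3 in SNU475 (0.50, 0.63 and 0.63) and with decitabine and the combination in SNU398 (0.71 and 0.62). For each gene that starts in the loci, these values cover the whole gene. The share of its RNA that starts in the repeat was not tested.

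**Figure D5:**
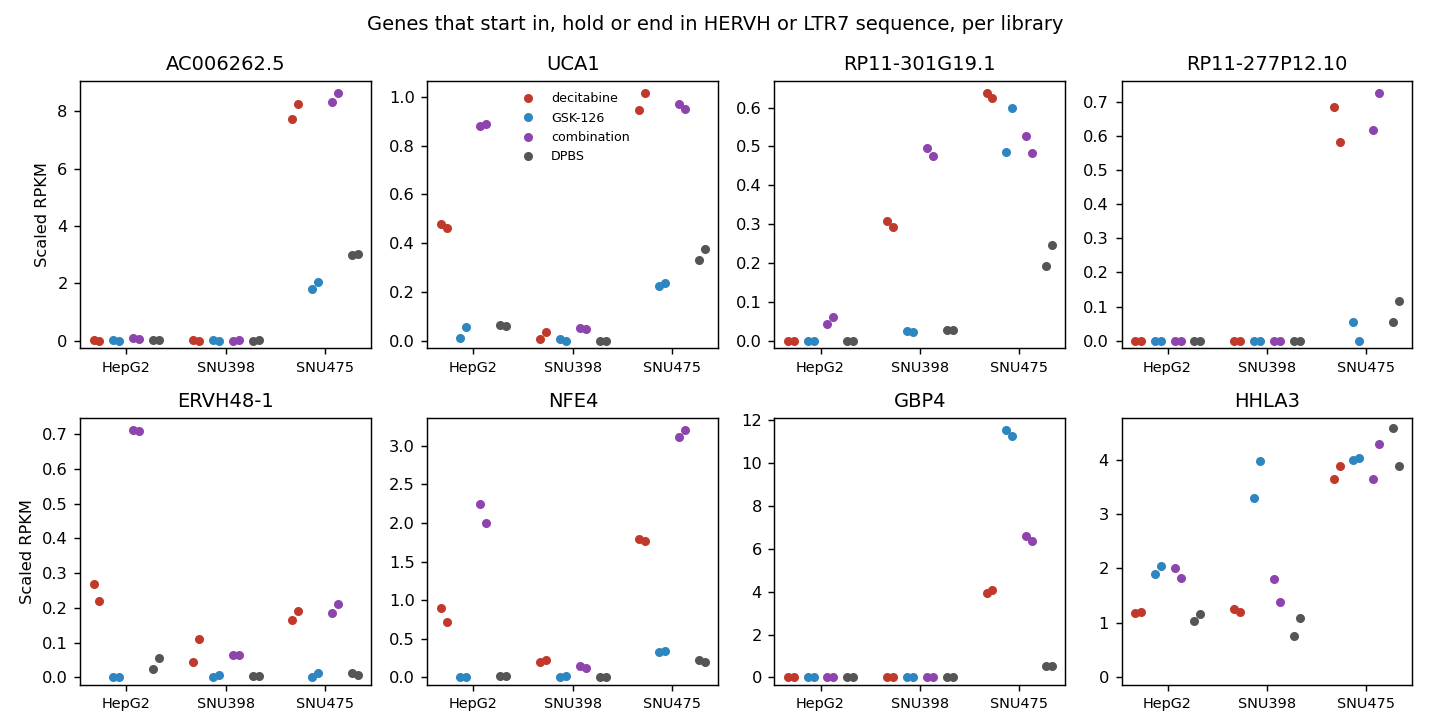
Scaled RPKM per library of 8 genes that start in HERVH or LTR7 loci or hold them, with decitabine, GSK-126, combination and DPBS from left to right in each line. AC006262.5 is high in SNU475 and above DPBS with both decitabine treatments, and GBP4 is highest with GSK-126 in SNU475 at 11.6 and 11.3.

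Among the genes that hold HERVH48-int loci are ERVH48-1, which encodes the secreted placental protein suppressyn, and NFE4, a gene described as a regulator of fetal globin. ERVH48-1 had 0.712 and 0.708 scaled RPKM with the combination in HepG2 and 0.270 and 0.219 with decitabine, against 0.0233 and 0.057 with DPBS, and was at 0 in both GSK-126 libraries. The combination exceeded decitabine by 0.70 ± 0.05 (limma adjusted p = 6.00e-08) and the product of the single effects by 0.81 ± 0.08 (adjusted p = 4.25e-07). Its HERVH48-int locus, chr21:44337224-44338136, had 0.675 and 0.756 RPM with the combination and 0.274 and 0.134 RPM with decitabine, a difference of 1.46 ± 0.25 (adjusted p = 9.52e-05) and the highest of the named loci in that comparison. NFE4 had 2.25 and 2.0 scaled RPKM with the combination and 0.902 and 0.717 with decitabine in HepG2 (1.0 ± 0.06, limma adjusted p = 4.40e-09), and 3.12 and 3.20 with the combination and 1.80 and 1.77 with decitabine in SNU475 (0.68 ± 0.06, adjusted p = 2.37e-06). The HERVH48-int locus there, chr7:102614064-102614555, had 0.508 and 0.588 RPM with the combination in SNU475 against 0.019 and 0.02 RPM with DPBS, and the gene FBXL13 spans the same place.

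Transcripts best known for HERVH in stem cells stayed at the floor. Of 10 such symbols (ESRG, LINC-ROR, LINC00458, LINC01108, ABHD12B, SCGB3A2, ERVH48-1, HHLA1, OC90 and CALB1), ERVH48-1 alone could be tested, and none of the others passed 0.129 scaled RPKM in any library. Of 6 transcription factors known at LTR7 in pluripotent cells, KLF4 and SOX2 could be tested. KLF4 had 1.14 and 1.04 scaled RPKM with the combination in HepG2 against 0.194 and 0.111 with DPBS (1.29, limma adjusted p = 1.31e-09), and SOX2 fell in SNU475 to 0.254 and 0.261 with the combination, against 0.979 and 0.911 with DPBS (-0.93). NANOG reached at most 0.0296 scaled RPKM. In HepG2 decitabine libraries POU5F1 had 0.514 and 0.461.

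Genes that silence endogenous retroviruses moved in both directions. Of 18 such genes 17 were tested. With decitabine 7 were called higher and 8 lower in HepG2 (background 35.9% and 18.3% of genes), 5 and 6 in SNU398 (23.4% and 15.4%), and 6 and 9 in SNU475 (24.2% and 27.3%). With GSK-126 the counts were 8 and 9 in HepG2 (31% and 21.7%), 3 and 12 in SNU398 (30% and 22.4%), and 4 and 11 in SNU475 (21.5% and 28.5%), and with the combination 7 and 9 (40.6% and 25.9%), 3 and 11 (28.9% and 18.4%) and 6 and 9 (25.3% and 29.6%). Few changed by 2-fold. UHRF1, which brings DNMT1 to newly copied DNA, fell in HepG2 with GSK-126 to 5.34 and 5.43 scaled RPKM, against 19.0 and 18.4 with DPBS (-1.71). HELLS, a chromatin remodeller needed for DNA methylation, fell there with GSK-126 (-1.44) and the combination (-1.68). DNMT3B fell with GSK-126 in SNU398 (-1.04), and ATRX fell with the combination in SNU475 (-1.07).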

How the data were processed

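Ribosomal RNA-depleted, stranded total RNA libraries were read as single 75-base reads, per the labels' protocols. Alignment with HISAT2 to hg19 and counting with featureCounts are listed in the submitters' processing notes. The sources used here do not give versions, the strand setting or the treatment of reads with several matches. The authors deposited RPKM per repeat locus and per gene. RPKM times length in kb gave RPM, and the steps between low values of loci up to 150 bp gave the reads behind them.

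Simple repeats and structural RNA repeats were left out by name (803314 of 5298130 loci); a locus overlapping any annotated gene was inside. Differences were fitted with limma 3.58.1 (R 4.3.3) over all 24 libraries and 12 group means, leaving 12 residual degrees of freedom, on log2(RPM + 0.1) for 44652 loci that reached 0.25 RPM in 2 or more libraries, log2(RPM + 0.5) for subfamily sums that reached 1 RPM in as many, and log2(scaled RPKM + 0.5) for 19377 genes that reached 0.5 RPKM in as many. Gene values were scaled by medians of ratios over 8211 genes. P-values were adjusted by the Benjamini-Hochberg method over all features of a table, and "called" means an adjusted p under 0.05. The limma scripts were tested on simulated data. Tables and figures used Python 3.11.15, pandas 2.3.3, numpy 2.4.6, scipy 1.17.1 and matplotlib 3.10.9, and sequences were aligned with Biopython 1.88. The start sequence of 1 further RNA that met the same rule is not reported here.

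Named loci were the 6 highest outside and the 6 highest inside genes and, per comparison with DPBS, the 4 highest and 2 lowest changes among called loci whose groups did not overlap and of which 1 reached 0.5 RPM; for the combination against decitabine, the interaction and differences between lines, 2 and 2. Genes starting in the loci were named by the 5 highest levels and the 5 largest called changes; RP11-301G19.1, ZNF107, MPV17L, DPH6, LINC00478, HHLA3, GBP4 and NFE4 were added as hosts of named loci. The family and the gene lists were chosen with earlier results of these data known; the loci of the family were then taken by repeat name. Alternatives were pseudocounts, scaling by genes, limma voom, 1 line alone, filters, gene bodies extended by 10 kb, sums without the highest locus, a replicate block, and leaving out each library.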

Additional observations from a re-analysis of the deposited data

Results flagged for a closer look

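The results here were picked out because the effect of the combination against DPBS differed between lines by a limma test of that difference, adjusted over all subfamilies or all loci. Outside genes, the HERVH-int effect was lower by 1.83 log2 units in SNU398 than in HepG2 (-1.83, adjusted p = 1.13e-25) and by a similar amount in SNU475 than in HepG2 (-1.80, adjusted p = 2.99e-26). The LTR7 effect differed by -0.69 between SNU475 and HepG2 and by -0.83 between SNU475 and SNU398. LTR7B differed by -0.36 between SNU398 and HepG2, and LTR7Y by -1.44 between SNU398 and HepG2 and by -1.31 between SNU475 and HepG2. Without the highest locus of each subfamily, LTR7B outside genes turned to 0.11 and LTR7Y to -0.078 and 0.046, and none of these was called; with gene bodies extended by 10 kb, LTR7B turned to 0.14, also not called.

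Inside genes, HERVH-int differed by -0.29 between SNU475 and HepG2. HERVH48-int differed by -1.76 between SNU398 and HepG2, by -0.74 between SNU475 and HepG2 and by 1.02 between SNU475 and SNU398. LTR7 differed by -0.33 between SNU475 and HepG2 and by -0.44 between SNU475 and SNU398. LTR7B was 0.78 higher in SNU398 and 0.59 higher in SNU475 than in HepG2, where the MPV17L locus fell. LTR7C was 0.53 higher in SNU475 than in HepG2 and 0.35 higher than in SNU398. Without the highest locus, calls were lost for LTR7 between SNU475 and HepG2 (-0.15), LTR7B between SNU398 and HepG2 (0.23) and between SNU475 and HepG2 (0.17), and LTR7C between SNU475 and SNU398 (0.085).

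Among single loci, HERVH-int at chr15:53721366-53724226 differed by -6.41 between SNU398 and HepG2 and by -6.49 between SNU475 and HepG2, and HERVH-int at chrX:109110791-109113650 by -4.56 in both comparisons. The LTR7B in LINC00478 differed by 3.0 between SNU398 and HepG2. The LTR7 at chr5:135066688-135067073 differed by 2.39 between SNU398 and HepG2 and by -2.39 between SNU475 and SNU398. The LTR7 at the end of GBP4 differed by 3.15 between SNU475 and HepG2 and by 3.26 between SNU475 and SNU398, and the HERVH-int in DPH6 by 2.78 and 2.52. The HERVH-int in RP11-301G19.1 differed by -2.62 between SNU475 and SNU398. Most of these loci stood at or near 0 in the line without the effect, so the fitted sizes depend on the 0.1 RPM added.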

How the results depend on the processing

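Over sums, counts and named loci, each change outside genes of HERVH-int with decitabine or the combination against DPBS kept its direction and its call under the alternatives run. Counts of called loci moved more. The filter sets how many loci are tested, and 2 libraries a group leave few residual degrees of freedom. The part that either plays in the moves was not tested. With the 8 libraries of a line alone, loci called higher numbered 1 for HepG2 GSK-126, 5 for SNU398 decitabine, 2 for SNU398 GSK-126, 16 for SNU475 decitabine, 2 for SNU475 GSK-126 and 14 for the SNU475 combination; loci called lower numbered 3 for HepG2 GSK-126, 6 for the HepG2 combination, 0, 1 and 2 for SNU398 decitabine, GSK-126 and combination, 0, 4 and 3 for SNU475 decitabine, GSK-126 and combination, and 10 for combination against decitabine in HepG2. In that fit HERVH-int inside genes passed with decitabine in SNU398 (0.17). With the looser filter of 0.1 RPM, higher calls were 72 and 12 for HepG2 decitabine and GSK-126, 9 for SNU398 GSK-126, 41 and 42 for SNU475 decitabine and combination, and 3 and 1 for combination against decitabine in SNU398 and SNU475; lower calls were 1, 2 and 2 in SNU398, and 45 and 0 for combination against decitabine in HepG2 and SNU475. With the stricter filter of 1 RPM, higher calls were 13, 4 and 14 in HepG2, 7, 2 and 9 in SNU398, 8 and 6 for SNU475 decitabine and combination, and 5, 0 and 1 for combination against decitabine in HepG2, SNU398 and SNU475; lower calls were 2 and 3 for HepG2 decitabine and GSK-126, 0 and 2 for SNU398 decitabine and GSK-126, 5 for the SNU475 combination, and 9 and 0 for combination against decitabine in HepG2 and SNU475.

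The cause of the following moves was not tested either. With 0.02 RPM added, higher calls were 3 for HepG2 GSK-126, 13 and 2 for SNU475 decitabine and GSK-126, and 2 for combination against decitabine in SNU398; lower calls were 7 for the HepG2 combination, 1 and 2 for SNU398 GSK-126 and combination, 1 and 9 for SNU475 GSK-126 and combination, and 0 for combination against decitabine in SNU475. With 0.5 RPM added, lower calls were 8 for HepG2 GSK-126, 5, 7 and 8 in SNU398, 17 for SNU475 GSK-126, and 1 and 4 for combination against decitabine in SNU398 and SNU475; higher calls were 8 for SNU398 GSK-126 and 2 and 3 for combination against decitabine in SNU398 and SNU475. Scaled by the genes, HERVH-int inside genes with GSK-126 in SNU398 turned to 0.16, and lower calls were 1, 1 and 2 in SNU398 and 7 for SNU475 GSK-126. With limma voom, higher calls were 1 for HepG2 GSK-126 and 1 for combination against decitabine in SNU475; lower calls were 6 for the HepG2 combination, 5 for SNU398 decitabine, 4, 3 and 6 in SNU475, and 9 and 0 for combination against decitabine in HepG2 and SNU475.

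Libraries of the same letter correlated by -0.118 to 0.244 in their deviations from group means, and the labels do not say what the letters share, so they were not used as pairs. The replicate block moved 1 count by over 1.5 times, the higher calls for combination against decitabine in SNU398 (2), and, of the sums outside or inside genes, ended 3 interactions that the report does not give. Leaving out 1 library at a time gave, for higher calls, 4 to 8 for HepG2 GSK-126, 4 to 10 for combination against decitabine in HepG2, 9 to 15 for SNU398 decitabine, 2 to 5 for SNU398 GSK-126, 0 to 3 for combination against decitabine in SNU398, 16 to 27 for SNU475 decitabine and 2 to 5 for SNU475 GSK-126. For lower calls it gave 7 to 12 for the HepG2 combination, 1 to 2, 0 to 4 and 1 to 4 for SNU398 decitabine, GSK-126 and combination, 0 to 1 for combination against decitabine in SNU398, 2 to 8, 1 to 12 and 6 to 16 for SNU475 decitabine, GSK-126 and combination, and 0 to 3 for combination against decitabine in SNU475. HERVH-int in SNU398 with GSK-126 ranged from 0.15 to 0.26 outside genes, losing its call without DPBS A or GSK-126 A, and from -0.11 to 0.084 inside, above 0 without DPBS A (0.03) or GSK-126 B (0.084).

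Sums that turned round without their highest locus were LTR7B over all loci in HepG2 with GSK-126 (0.10) and inside genes (0.041), LTR7B outside genes in SNU398 with the combination (0.24, and 0.24 with gene bodies extended by 10 kb), LTR7C in HepG2 with decitabine (0.10 over all loci, 0.086 inside), LTR7C inside in SNU398 with GSK-126 (0.038), and, for differences of the combination effect, LTR7B between SNU398 and HepG2 (-0.0060 over all loci, 0.11 outside, 0.14 with extended gene bodies) and LTR7Y outside between SNU475 and HepG2 (0.046). Of the other single values, 1676 kept direction and side of the threshold under the other settings and 139 lost their call, and with 1 library left out 5120 kept both and 232 lost the call. At 32.6 to 60.4 M reads per library, 6289 of 9801 loci had no read; how many more a greater depth would reach was not tested.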

Other observations

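Across the 24 libraries, the repeat subfamily sum outside genes most like HERVH-int among 584 others was MLT1H1, an old mammalian LTR, with a Pearson correlation of log2 RPM of 0.936. LTR7Y followed with 0.883, HERVI-int with 0.857, L1PA2, a young LINE-1 subfamily, with 0.849, and MER63A with 0.84. In SNU475, HERVI-int outside genes had a mean of 7.58 RPM with decitabine against 1.87 RPM with DPBS. MLT1H1 had 4.62 against 4.05 RPM there, LTR7Y 1.27 against 0.748 RPM, L1PA2 41.4 against 45.7 RPM and MER63A 2.57 against 2.68 RPM. The points share their libraries, depth and line, so the values describe these libraries only.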
